A study of Mus musculus with 16 samples.

Results

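Interferons are secreted signals that make cells transcribe a shared set of antiviral genes. Interferon receptors act through kinases and transcription factors: a complex that holds STAT2 and IRF9 binds a DNA motif called the interferon-stimulated response element (ISRE), and the response to interferon gamma uses another motif, the gamma-activated site (GAS). The same signals raise antigen presentation, in which the immunoproteasome cuts proteins into peptides, the TAP transporter carries them into the endoplasmic reticulum, tapasin helps to load them, and MHC class I molecules show them at the cell surface. In pancreatic β cells, the insulin-producing cells of the islet, these genes are known from work on autoimmune diabetes, where T cells recognise peptides on class I molecules. The 43 genes described here were taken by name from the deposited count table, which holds 22869 genes, and were ordered by role, with the guanylate-binding proteins (Gbp) set apart.

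The series compared pancreatic β cells of old and young mice. RNA was sequenced from 3 old libraries, labelled 15, 16 and 17 months, and 2 young libraries, labelled 4 to 6 weeks, all of strain MIP-GFP/Bl6, in which a mouse insulin promoter drives green fluorescent protein so that β cells can be sorted by flow cytometry. Each RNA library came from a pool of 5 to 10 mice. H3K4me1, H3K27me3 and bisulfite libraries were held as 1 per age and H3K27ac as 1 young library, from sorted β cells of strain C57Bl6, labelled 16 to 18 months for old and 4 to 6 weeks for young mice, though the design text puts the old bisulfite pool at 18 to 22 months.

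Old RNA libraries held 23559908 to 33562822 gene counts, and the young ones 6377619 (the shallower) and 12892123 (the deeper). Over all 15544 genes tested, 3.17% rose and 7.93% fell in old cells. Of 11 β-cell marker genes, 3 rose and 0 fell. Of 67 tested markers of other pancreatic, vascular and immune cell types, 0 rose and 44 fell (25 without the old library of 17 months), so these markers made up a larger share of the RNA in the young libraries. The summed level of 22 macrophage and lymphocyte markers was 36.9, 22.2 and 32.0 CPM in the old libraries of 15, 16 and 17 months, against 184 and 168 CPM in the shallower and the deeper young library. CPM is the read count divided by the library size after TMM scaling, on the usual CPM scale. Ms4a1 and Cd8a, which mark B cells and cytotoxic T cells, were at 0 in all 3 old libraries. The summed level of 12 endothelial markers was 106, 88.5 and 72.5 CPM in old libraries, against 610 and 1257 CPM in the shallower and the deeper young library. The young pair also differed in other lists: markers of other islet hormone cells summed to 813, 1687 and 1780 CPM in old libraries, against 4137 and 37541 CPM in the shallower and the deeper young one, and stellate and fibroblast markers to 33.5, 18.4 and 21.2 CPM in old libraries, against 578 and 4948 CPM in the shallower and the deeper young one. In such bulk samples, fewer cells of a type and less RNA per cell cannot be told apart, and the part of these cells in the results below was not tested.

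The promoter letters of the genes that the RNA and methylation results turn on are shown first, since interferon motifs are short and can be read by eye. They are the 250 bases before the RefSeq start in GRCm38.p6, 5′ to 3′ on the gene's strand. Capitals mark the ISRE core (GAAA, any 2 bases, GAAA) and the GAS core (TTC, any 3 bases, GAA), each searched on both strands, so that an ISRE core on the opposite strand reads TTTC, any 2 bases, TTTC. Bst2, Ifih1 and Oasl2 fell in old cells, Psmb8 had the best-covered called promoter difference, and Gbp7 is the Gbp gene with an H3K27ac peak. The Bst2 promoter lies at chr8:71537473-71537722 on the minus strand, and its capitals join 1 GAS core and 2 ISRE cores that overlap.
Bst2: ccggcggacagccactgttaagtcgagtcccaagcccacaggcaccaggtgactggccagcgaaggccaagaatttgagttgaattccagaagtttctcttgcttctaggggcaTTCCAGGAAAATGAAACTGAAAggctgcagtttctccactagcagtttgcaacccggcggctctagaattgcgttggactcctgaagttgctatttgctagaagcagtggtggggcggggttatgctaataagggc
The Ifih1 promoter lies at chr2:62646256-62646505 on the minus strand.
Ifih1: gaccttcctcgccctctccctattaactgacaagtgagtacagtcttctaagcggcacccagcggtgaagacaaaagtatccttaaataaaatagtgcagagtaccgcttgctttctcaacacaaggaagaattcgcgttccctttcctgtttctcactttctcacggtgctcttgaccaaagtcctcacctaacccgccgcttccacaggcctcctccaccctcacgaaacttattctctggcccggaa
The Oasl2 promoter lies at chr5:114896684-114896933 on the plus strand.
Oasl2: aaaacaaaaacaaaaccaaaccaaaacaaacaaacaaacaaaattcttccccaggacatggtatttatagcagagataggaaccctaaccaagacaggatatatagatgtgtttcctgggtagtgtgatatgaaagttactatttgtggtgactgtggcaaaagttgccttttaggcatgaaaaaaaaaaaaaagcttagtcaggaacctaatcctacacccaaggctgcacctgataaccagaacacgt
The Psmb8 promoter lies at chr17:34197945-34198194 on the plus strand, with 1 GAS core.
Psmb8: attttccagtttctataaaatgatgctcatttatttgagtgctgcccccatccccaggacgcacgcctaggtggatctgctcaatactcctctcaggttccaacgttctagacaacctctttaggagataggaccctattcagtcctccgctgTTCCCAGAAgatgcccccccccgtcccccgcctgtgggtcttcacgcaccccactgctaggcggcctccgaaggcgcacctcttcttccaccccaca
The Gbp7 promoter lies at chr3:142530086-142530335 on the plus strand, with 2 GAS cores followed by 1 ISRE core.
Gbp7: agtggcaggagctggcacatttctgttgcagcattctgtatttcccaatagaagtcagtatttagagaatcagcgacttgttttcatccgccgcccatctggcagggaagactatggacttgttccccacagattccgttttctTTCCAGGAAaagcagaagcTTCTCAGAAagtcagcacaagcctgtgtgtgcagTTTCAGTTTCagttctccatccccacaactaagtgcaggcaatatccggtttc

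In the RefSeq promoters, which add 50 bases after the start, 32 of the 43 genes had an entry, with 37 promoters in all. An ISRE core was found in 17 of these promoters (45.9%), against 3.44% of all 32851 mouse promoters of that length. A GAS core was found in 9 (24.3%), against 8.30% of all promoters. Ifih1 held its ISRE core 32 bases after the start, and Oasl2 held neither motif. Gbp6, Gbp9, Gbp11, Tap2, Rtp4, Mx1, Mx2, Oas2, Nlrc5, Parp14 and Usp18 had no entry. Isg15, a ubiquitin-like antiviral protein, had 3 overlapping ISRE cores, whose letters are joined in capitals below. The paralogs Irgm2 and Igtp shared the same letters around theirs, where capitals mark the ISRE core alone.
Isg15: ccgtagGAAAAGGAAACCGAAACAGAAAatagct
Irgm2: ggaactGAAACTGAAAgctgtt
Igtp: ggaactGAAACTGAAAgctgtt

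As a group the 43 genes did not move one way in old β cells. Of the 41 tested, 1 rose (Gbp11) and 3 fell (Ifih1, Bst2 and Oasl2), while 37 did not pass the threshold (edgeR's quasi-likelihood test, two-sided, Benjamini-Hochberg adjusted over all genes, threshold 0.05). Of 15544 genes tested, 3.17% rose and 7.93% fell. The log2 fold change, old over young, was positive in 21 and negative in 20 members, with a median of 0.03, against -0.05 over all genes. All old libraries stood above both young ones in 9 members and below both in 9, against 24.4% and 24.5% of all genes. The young libraries differed between themselves by more than 2-fold in 19 of the 33 members with a mean of at least 1 CPM in both groups, against 41.5% of all genes. The deeper young library was the higher of the young pair in 31 of the 41 tested members, against 52.7% of all genes tested. When it was left out 7 members rose (Gbp6, Gbp9, Gbp11, H2-K1, Parp14, Psmb8 and Psmb9), against 13.9% of all 17051 genes then tested, and 5 fell (Bst2, Ifih1, Ifit2, Oasl2 and Xaf1), against 18.2%.

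**Figure D1:**
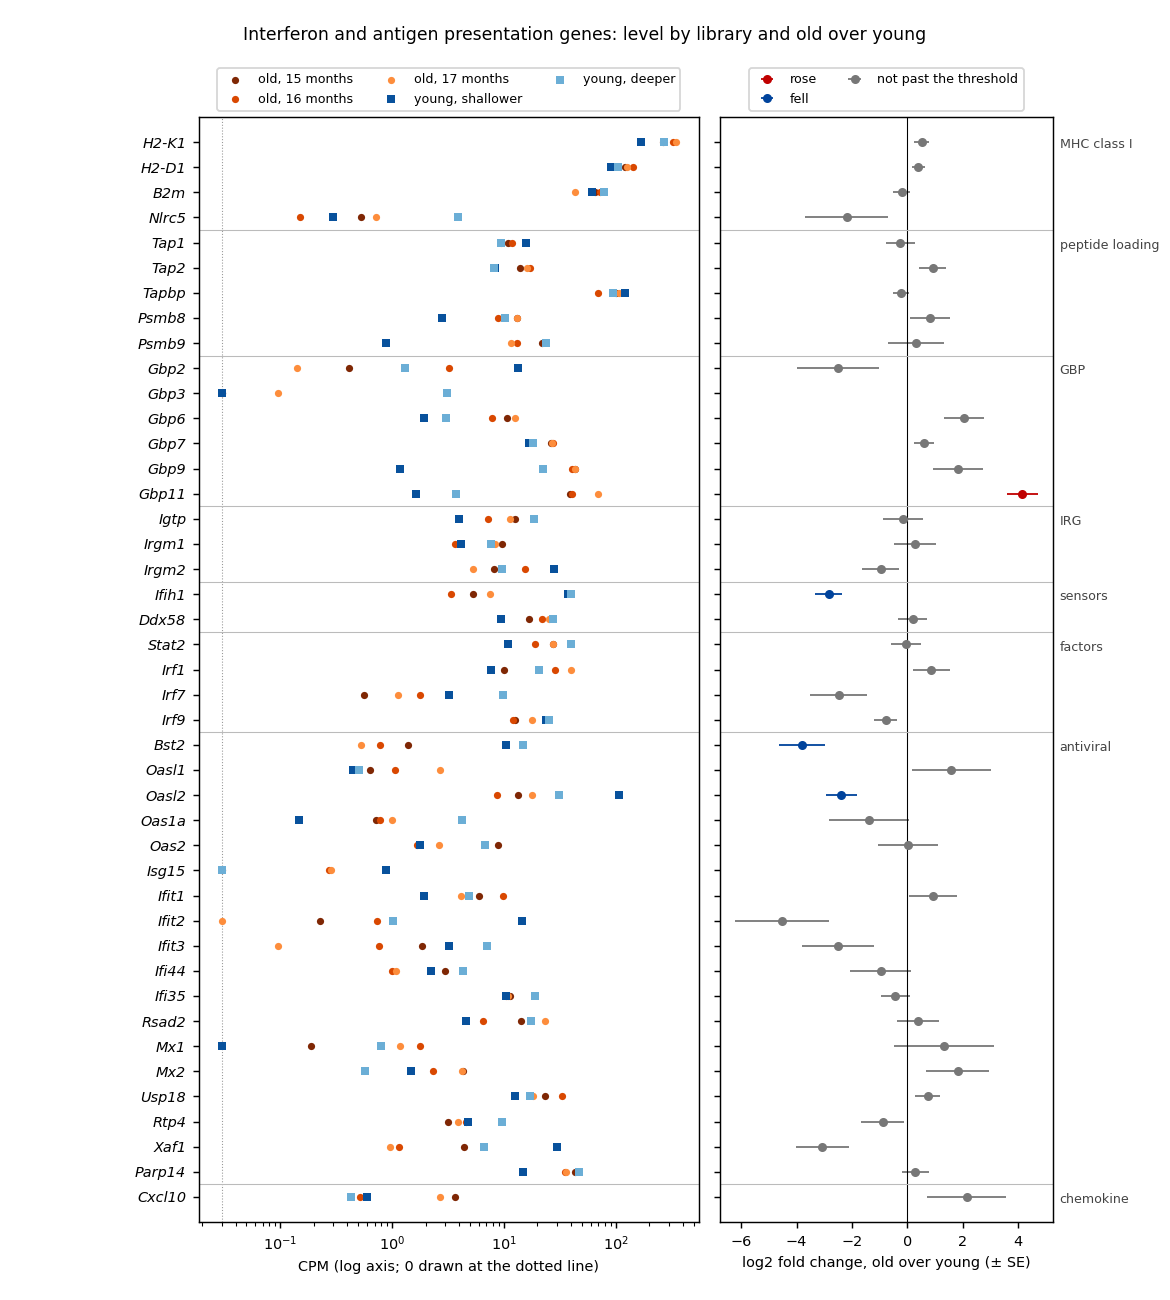
Level of each of the 43 genes in CPM (left, log axis, 1 point per library, circles old and squares young) and the fitted log2 fold change, old over young, with its standard error (right, 41 tested genes). Gbp11 lies to the right at 4.16, and Ifih1, Bst2 and Oasl2 lie to the left at -2.84, -3.81 and -2.38.

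MHC class I molecules were the most abundant transcripts of the set and none of the 4 genes of this group passed the threshold. H2-K1, a classical class I heavy chain, had 266, 324 and 347 CPM in the old libraries of 15, 16 and 17 months, against 168 and 268 CPM in the shallower and the deeper young library. The old range met the deeper young library, so the groups overlapped. The log2 fold change of H2-K1 was 0.52 (SE 0.27, edgeR adjusted p = 0.244), and 0.91 (adjusted p = 0.0327) without the deeper young library. H2-D1, the other classical heavy chain, had 121 to 142 CPM in old libraries, against 91.5 to 105 CPM in young ones, and B2m, their common light chain, 42.99 to 72.8 CPM in old and 61.3 to 78.0 CPM in young libraries. Nlrc5, the transactivator of class I genes, stayed under 1 CPM in every old library and had 0.30 and 3.91 CPM in the shallower and the deeper young one. The log2 fold change of Nlrc5 was -2.19, against -3.06 without the shallower and 0.64 without the deeper young library, and that of B2m -0.21, against 0.0026 without the old library of 17 months. On the authors' per-length signal, which allows levels of different genes to be compared within a library, H2-K1 ranked 1, B2m 2, H2-D1 3 and Tapbp 4 of the 43 genes in the old libraries of 15 and 16 months and in the deeper young library.

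The peptide-loading genes did not pass the threshold either. Tapbp, which encodes tapasin, had 101.6, 69.4 and 107 CPM in the old libraries of 15, 16 and 17 months, against 121 and 94.5 CPM in the shallower and the deeper young one. The groups overlapped, and the log2 fold change was -0.22 (SE 0.28, edgeR adjusted p = 0.649). The transporter genes Tap1 and Tap2 had 9.39 to 11.8 and 13.8 to 17.0 CPM in old libraries, against 9.41 to 15.9 and 8.25 to 8.32 CPM in young ones. The immunoproteasome subunits Psmb8 and Psmb9 were spread mainly among the young libraries. Psmb9 had 22.1, 13.1 and 11.6 CPM in old libraries, against 0.89 and 23.7 CPM in the shallower and the deeper young library. Psmb8 had 13.0, 8.80 and 13.1 CPM in old libraries, against 2.82 and 10.2 CPM in the shallower and the deeper young one. The log2 fold change of Psmb9 was 0.33, against -0.60 without the shallower and 4.13 (adjusted p = 0.00474) without the deeper young library, and Psmb8 had 2.05 (adjusted p = 0.0404) without the deeper one.

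The Gbp genes encode large GTPases that interferon gamma induces and that attack the membranes around intracellular microbes. In the mouse they lie in a cluster on chromosome 3 and another on chromosome 5, and the clusters are described in turn. Gbp11 (chr5:105752045-105775491, minus strand, mm9) had 39.3, 40.8 and 69.5 CPM in the old libraries of 15, 16 and 17 months, against 1.63 and 3.76 CPM in the shallower and the deeper young library. All old libraries lay far above both young ones. Gbp11 rose, with a log2 fold change of 4.16 (SE 0.56, edgeR adjusted p = 0.00697), and it passed the threshold under each alternative setting and without each library in turn. On the per-length signal Gbp11 ranked 6 and 7 of the 43 genes in the old libraries of 15 and 16 months, against 33 in the deeper young library.

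Gbp9 and Gbp6, on the same chromosome, had positive log2 fold changes that did not pass the threshold. Gbp9 had 43.1, 40.9 and 43.7 CPM in old libraries, against 1.19 and 22.5 CPM in the shallower and the deeper young one. The old libraries were close to each other and the young ones far apart, without overlap, and the log2 fold change was 1.82 (SE 0.90, edgeR adjusted p = 0.22). Gbp6 had 10.6, 7.83 and 12.6 CPM in old libraries, against 1.93 and 3.04 CPM in the shallower and the deeper young one. The groups did not overlap, and the log2 fold change was 2.04 (SE 0.73, edgeR adjusted p = 0.104). Gbp8, a gene of this cluster outside the 43, rose as well, with 155, 138 and 179 CPM in old libraries, against 48.6 and 13.2 CPM in the shallower and the deeper young one (log2 fold change 2.36, SE 0.52, edgeR adjusted p = 0.0294). Both young libraries bore on Gbp9, with 0.92 (adjusted p = 0.0717) without the shallower and 5.17 (adjusted p = 0.000201) without the deeper one. Gbp6 had 1.77 (adjusted p = 0.0857) without the shallower and 2.43 (adjusted p = 0.0331) without the deeper one. Gbp8 had 2.24 to 2.41 without any 1 old library (adjusted p = 0.0723 to 0.103).

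On chromosome 3 the values went other ways. Gbp7 had 26.5, 27.3 and 26.7 CPM in old libraries, against 16.9 and 18.2 CPM in the shallower and the deeper young one. The groups did not overlap, and the log2 fold change was 0.61 (SE 0.37, edgeR adjusted p = 0.312). Gbp2 had 0.41, 3.25 and 0.14 CPM in old libraries, against 13.4 and 1.30 CPM in the shallower and the deeper young one, with overlap (log2 fold change -2.51, SE 1.48, edgeR adjusted p = 0.298). The Gbp2 value was -0.02 without the shallower young library and -4.71 without the old library of 16 months. Gbp3 was at 0 in the old libraries of 15 and 16 months and in the shallower young library, at 0.10 CPM in the old library of 17 months and at 3.11 CPM in the deeper young library, and was not tested. A count of 0 allows up to 0.11, 0.09 and 0.45 CPM in those 3 libraries, for counting error only.

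Summed over its 6 genes, the chromosome 5 cluster, which spans 332 kb, had 257, 243 and 323 CPM in old libraries, against 65.9 and 47.2 CPM in the shallower and the deeper young one, 4.85 times the young mean. All 6 genes had a positive log2 fold change, against 48.2% of all genes tested. In 5 all old libraries stood above both young ones, against 24.4% of all genes. The 5 genes of the chromosome 3 cluster summed to 27.9, 32.5 and 28.2 CPM in old libraries, against 50.2 and 26.9 CPM in the shallower and the deeper young one, 0.767 times the young mean. Without Gbp1 and Gbp5, which are outside the 43, the 3 members on chromosome 3 summed to 26.9, 30.5 and 26.9 CPM in old libraries, against 30.3 and 22.7 CPM in the shallower and the deeper young one, 1.06 times the young mean. The difference between the clusters was not tested. Gbp genes are near-identical copies in places, and the sources used here do not state how reads shared by copies were assigned, so the split of counts among neighbours is uncertain.

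**Figure D2:**
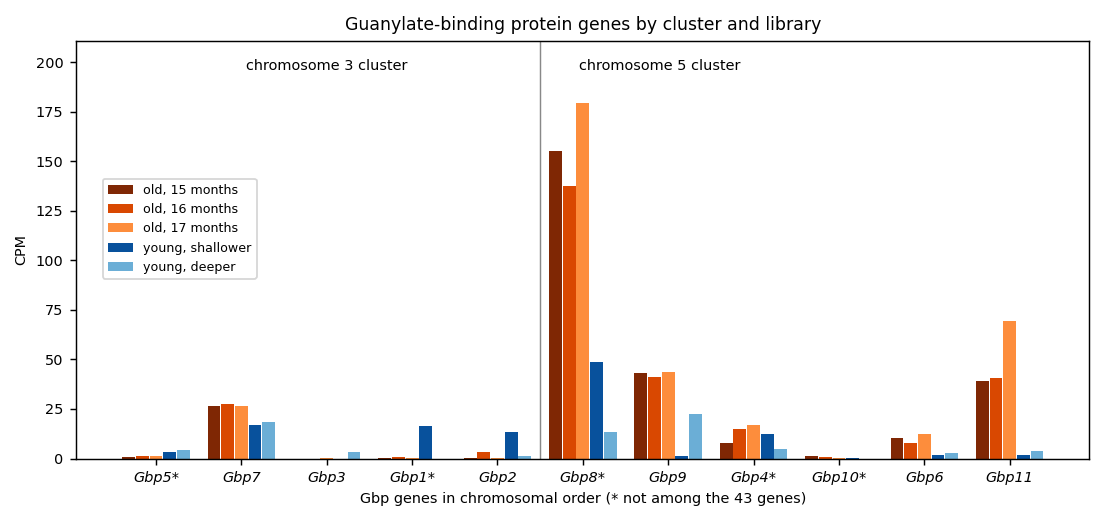
CPM of 11 Gbp genes in chromosomal order, with 1 bar per library, old left of young; asterisks mark genes outside the 43. Gbp11, Gbp9, Gbp6 and Gbp8 on chromosome 5 are higher in all 3 old libraries, whereas Gbp1 and Gbp2 on chromosome 3 are highest in the shallower young library.

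The immunity-related GTPases Igtp, Irgm1 and Irgm2, relatives of the Gbp proteins with a like role, did not pass the threshold and overlapped between ages. Irgm2 had 8.17, 15.4 and 5.29 CPM in the old libraries of 15, 16 and 17 months, against 27.9 and 9.55 CPM in the shallower and the deeper young one, a log2 fold change of -0.95 (SE 0.67, edgeR adjusted p = 0.379), or 0.02 without the shallower young library. The old libraries differed among themselves almost as much as the young pair.

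The sensors of viral RNA went separate ways. Ifih1 (chr2:62433850-62484312, minus strand, mm9) encodes MDA5, which binds long double-stranded RNA and which human genetics links to type 1 diabetes. Ifih1 had 5.35, 3.37 and 7.48 CPM in the old libraries of 15, 16 and 17 months, against 37.4 and 39.9 CPM in the shallower and the deeper young one. The young pair was close and the groups stood well apart. Ifih1 fell, with a log2 fold change of -2.84 (SE 0.48, edgeR adjusted p = 0.0144). Ddx58, which encodes RIG-I, a sensor of short RNA with a 5′ triphosphate, had 16.8, 22.1 and 25.2 CPM in old libraries, against 9.36 and 27.8 CPM in the shallower and the deeper young one. The Ddx58 groups overlapped, with a log2 fold change of 0.19 (SE 0.53, edgeR adjusted p = 0.842), or -0.37 without the shallower and 1.20 without the deeper young library. The call of Ifih1 was lost without the old library of 15 months (adjusted p = 0.0687) or of 16 months (adjusted p = 0.0554), when 1.95% and 2.63% of all genes fell, against 7.93% with all libraries.

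None of the 4 transcription factors passed the threshold. Stat2 had 27.5, 19.1 and 27.6 CPM in the old libraries of 15, 16 and 17 months, against 11.0 and 39.8 CPM in the shallower and the deeper young one, with overlap (log2 fold change -0.05, SE 0.55, edgeR adjusted p = 0.969), or -0.68 without the shallower and 1.18 without the deeper young library. Irf7, the amplifier of type I interferon transcription, had 0.57 to 1.79 CPM in old libraries, against 3.27 to 9.77 CPM in young ones, and fell without the shallower young library (-3.05, adjusted p = 0.0461). Irf9, the DNA-binding partner of STAT2, had 12.2 to 17.9 CPM in old libraries, against 23.8 to 25.1 CPM in young ones. Neither overlapped between ages, whereas Irf1, a factor of the interferon gamma response, did.

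Of the 18 antiviral effectors, 17 were tested, of which 2 fell and 0 rose, against 7.93% and 3.17% of all genes tested. Bst2 (chr8:74058161-74061336, minus strand, mm9) encodes tetherin, which holds budding virus at the cell surface. Bst2 had 1.39, 0.79 and 0.52 CPM in the old libraries of 15, 16 and 17 months, against 10.5 and 14.9 CPM in the shallower and the deeper young one. The groups stood apart, and Bst2 fell, with a log2 fold change of -3.81 (SE 0.83, edgeR adjusted p = 0.029). Oasl2 (chr5:115346943-115362254, plus strand, mm9), a relative of the oligoadenylate synthetases, had 13.3, 8.77 and 17.7 CPM in old libraries, against 108 and 31.0 CPM in the shallower and the deeper young one. Both young libraries were higher, though far apart, and Oasl2 fell, with a log2 fold change of -2.38 (SE 0.55, edgeR adjusted p = 0.0334). Without any 1 old library the adjusted p of Bst2 was 0.0819 to 0.0969 and that of Oasl2 0.0925 to 0.113, when 1.81% to 2.63% of all genes fell, and without the shallower young library Oasl2 had -1.22 (adjusted p = 0.0772).

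Other effectors gave a mixture. Xaf1, a factor in cell death, had 4.41, 1.15 and 0.95 CPM in the old libraries of 15, 16 and 17 months, against 30.2 and 6.66 CPM in the shallower and the deeper young one (log2 fold change -3.07, SE 0.95, edgeR adjusted p = 0.0728), and fell without the deeper young library (-3.78, adjusted p = 0.00677), with DESeq2 (-3.22, adjusted p = 0.0117) and with no filter on low counts (-2.97, adjusted p = 0.049997). Usp18, which removes ISG15 from proteins and dampens interferon signalling, had 18.1 to 33.1 CPM in old libraries, against 12.5 to 17.2 CPM in young ones. Isg15 itself was low, with 0, 0.27 and 0.29 CPM in old libraries, against 0.89 and 0 CPM in the shallower and the deeper young one, and was not tested. Ifit2, Ifit3 and Rtp4 were lower in all old libraries, and Mx2 and Oasl1 higher, none past the threshold, though Ifit2 fell without the deeper young library (-5.42, adjusted p = 0.0155) and with DESeq2 (-4.73, adjusted p = 0.0337). Cxcl10, the chemokine that draws T cells, had 3.65, 0.52 and 2.67 CPM in old libraries, against 0.59 and 0.43 CPM in the shallower and the deeper young one, with overlap (log2 fold change 2.15, SE 1.42, edgeR adjusted p = 0.352).

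Of 99 tested genes of the same pathways outside the 43, 5 rose and 9 fell, against 3.17% and 7.93% of all genes tested. Without any 1 old library 0 rose, against 0.268% to 0.63% of all genes, and 2 or 3 fell, against 1.81% to 2.63%. Leaving out the deeper young library gave 17 that rose, against 13.9% of all genes, and 20 that fell, against 18.2%. Besides Gbp8, the rises were in genes of class I folding and presentation and in Lgals3bp, a secreted glycoprotein. Canx, the chaperone calnexin, had 753, 767 and 565 CPM in old libraries, against 334 and 357 CPM in the shallower and the deeper young one (log2 fold change 1.01, edgeR adjusted p = 0.0344). Pdia3, a disulfide isomerase of the loading complex, rose by 1.10 on the log2 scale (adjusted p = 0.0451), and H2-M3, a non-classical heavy chain, by 3.54 (adjusted p = 0.031). Canx and Pdia3 also fold other secreted proteins.

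The falls included genes that restrict viral entry at membranes. Ifitm3 had 1.21, 1.73 and 2.62 CPM in old libraries, against 75.7 and 102.1 CPM in the shallower and the deeper young one (log2 fold change -5.59, SE 0.45, edgeR adjusted p = 0.00384). Its paralogs Ifitm2 (-3.35, adjusted p = 0.0169) and Ifitm1 (-4.78, adjusted p = 0.031) fell as well. Il28ra, a subunit of the interferon lambda receptor, fell by 6.68 on the log2 scale (adjusted p = 0.0204), and Ikbke, a kinase that activates interferon regulatory factors, by 1.93 (adjusted p = 0.0481). Among class II presentation genes, 9 were tested, all had a negative log2 fold change (median -2.33), and Cd74, the invariant chain of antigen-presenting cells, fell by 2.74 (adjusted p = 0.02). The macrophage and lymphocyte markers moved the same way, with 0 of 18 tested genes positive, against 48.2% of all genes tested. Of these markers 3 fell past the threshold, against 7.93% of all genes, and the median log2 fold change was -2.93. The 9 interferon ligand genes were too low to test.

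Promoter methylation was measured from 1000 bases before to 500 after each mm9 start, as the share of methylated calls over CpGs with at least 5 reads at both ages. The bisulfite libraries had a median coverage of 18 reads in old and 16 in young cells. With 1 library per age, the tests compare these libraries and not the ages. A difference was called at a Fisher adjusted p under 0.05 and at least 10 points. Members had a median of 19.5% in old and 21.9% in young cells, against 10.5% and 11.0% over all 21369 promoters. The windows of members also held fewer CpGs, 26 in the median against 51 over all promoters. The median difference, old minus young, was -1.20 points in members and 0.07 points over all promoters. Of 43 promoters, 4 were lower in old cells, against 5.09% of all promoters, and 5 were higher, against 4.09%.

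Psmb8 had the called difference with the most CpGs. Its promoter was at 4.84% in old cells (95% Wilson interval 4.08 to 5.74, 2601 calls) and 16.8% in young cells (15.5 to 18.1, 3211 calls), over 70 CpGs, of which 55 were lower in old cells and 14 higher. Neighbouring CpGs can share reads: those at -439, -437 and -434 bases from the start each had 0 of 30 old and 9 of 26 young calls. The 70 CpGs are therefore not separate observations, and the intervals, which treat calls as independent, are too narrow. The other promoters lower in old cells had few CpGs: Ifit1 was at 16.7% in old and 32.1% in young cells over 7 CpGs, Mx2 at 17.1% in old and 31.0% in young cells over 7, and Gbp6 at 38.2% in old and 62.5% in young cells over 3. Ifit1 binds viral RNA and Mx2 is a dynamin-like GTPase.

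**Figure D3:**
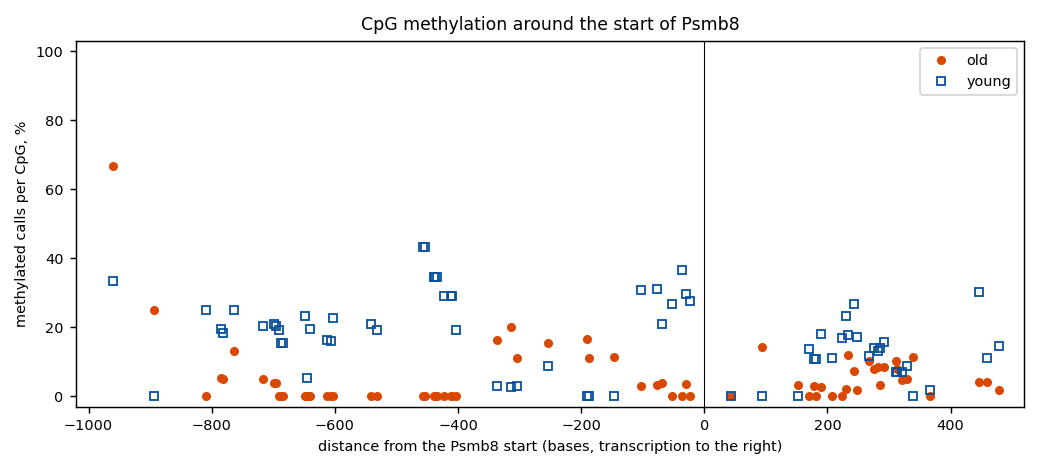
Methylated calls per CpG around the Psmb8 start (horizontal axis, bases from the start; filled circles old, open squares young; 70 CpGs, 1 library per age). Of the 70 CpGs 55 are lower in old cells, and the promoter as a whole is at 4.84% in old and 16.8% in young cells.

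The promoters higher in old cells belonged to Cxcl10 (48.6% in old and 32.7% in young cells, 22 CpGs), Oas1a (49.4% in old and 30.2% in young cells, 10 CpGs), Irgm2 (32.9% in old and 19.4% in young cells, 17 CpGs), Isg15 (75.4% in old and 62.1% in young cells, 14 CpGs) and Gbp3 (49.2% in old and 38.5% in young cells, 9 CpGs). In the Cxcl10 promoter 11 CpGs were higher and 11 lower in old cells. With every CpG given equal weight, Cxcl10 (41.3% in old and 36.7% in young cells), Irgm2 (30.9% in old and 24.3% in young cells) and Gbp3 (55.1% in old and 46.6% in young cells) were not called. Equal weights added calls at Oasl1 (11.5 points, old minus young) and Ifi35 (-10.3 points). With 500 bases before the start in place of 1000, Oas1a, Irgm2 and Gbp3 were not called. Gbp6 had too few CpGs to be tested in that window. The shorter window added calls at Oasl1 (24.3 points) and Ifit3 (-23.6 points). Isg15 was not called at a coverage minimum of 10, where Gbp6 again had too few CpGs, nor was Gbp3 called at a minimum of 1. None of the 9 called promoters belonged to a gene that passed the RNA threshold. Gbp11 was at 85.9% in old and 77.9% in young cells over 5 CpGs, Ifih1 at 9.20% in old and 10.3% in young cells, Bst2 at 19.1% in old and 19.5% in young cells and Oasl2 at 60.8% in old and 62.0% in young cells. Among the remaining Gbp genes, Gbp2 was at 46.7% in old and 59.1% in young cells, Gbp7 at 7.71% in old and 13.6% in young cells and Gbp9 at 35.6% in old and 40.8% in young cells, none called.

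**Figure D4:**
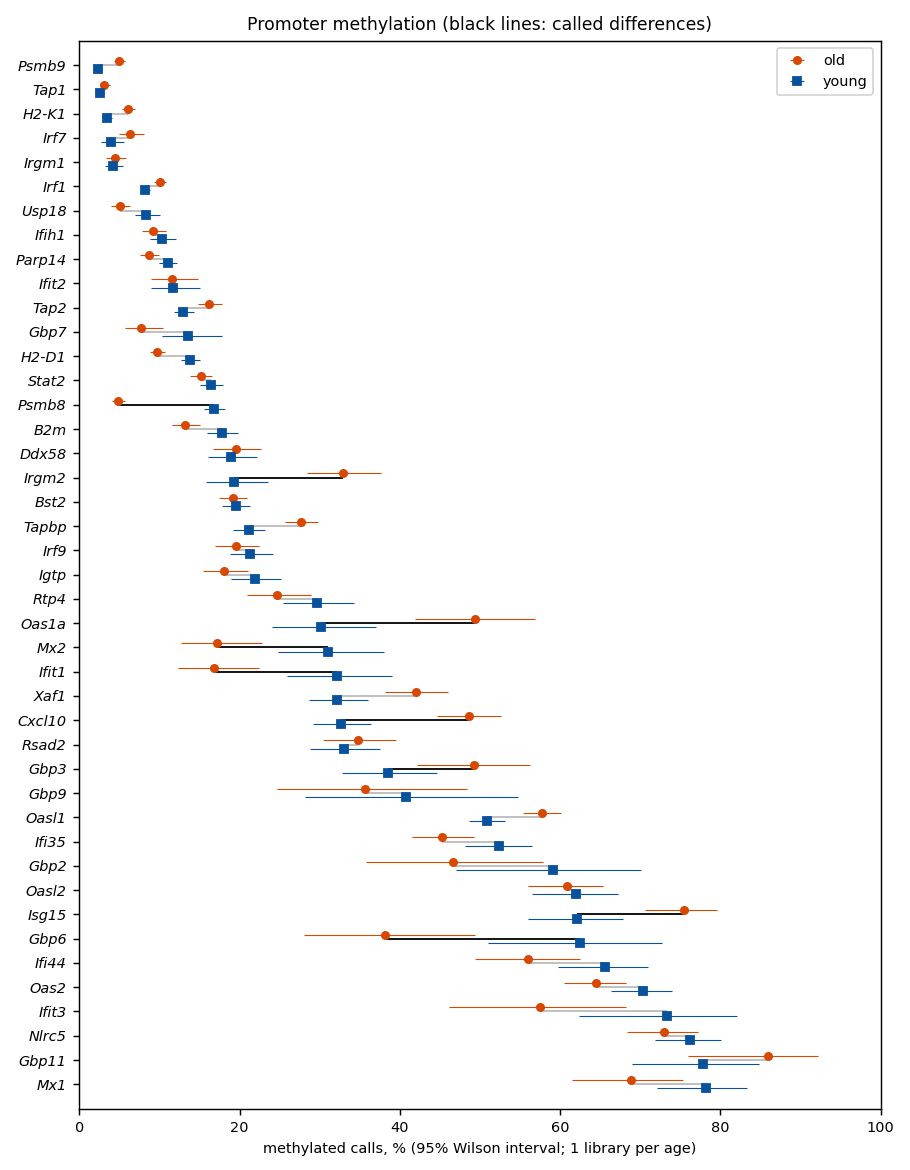
Promoter methylation of the 43 genes in percent of calls, with 95% Wilson intervals (circles old, drawn above; squares young; 1 library per age; black lines mark the 9 called differences). Psmb8 lies at 4.84% in old and 16.8% in young cells, and Oas1a and Cxcl10 lie higher in old cells.

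H3K4me1 marks enhancers and the flanks of promoters. Peaks were assigned to the nearest start within 50 kb. In the old list 40 peaks lay near 23 members, and 14 had enough CpGs: 7 were lower in old cells, against 16.6% of all such peaks, and 1 was higher, against 10.2%. In the young list 91 peaks lay near 38 members, and 34 had enough CpGs: 5 were lower in old cells, against 17.1%, and 4 higher, against 9.65%. The peak with the largest difference lower in old cells lay 19616 bases after the Nlrc5 start (chr8:97016216-97016342, mm9), at 20.5% in old and 52.4% in young cells. It held 3 CpGs with 39 old and 42 young calls. A peak 421 bases before the H2-K1 start (chr17:34137636-34137762) was at 14.6% in old and 40.3% in young cells, over 3 CpGs with 41 old and 62 young calls. The H2-K1 promoter window, which holds this peak, was at 6.10% in old and 3.49% in young cells over 81 CpGs and was not called. A peak in the Ddx58 region (chr4:40169006-40169126) was at 12.2% in old and 36.0% in young cells over 5 CpGs.

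The largest difference higher in old cells was at a peak before the Irf1 start (chr11:53582935-53583061), at 48.7% in old and 23.2% in young cells. Next came a peak before the Ddx58 start (chr4:40187112-40187232), at 19.3% in old and 0% in young cells with 39 young calls. A peak after the Oasl2 start (chr5:115347681-115347807) was at 30.1% in old and 14.9% in young cells. Peaks after the Tap1 start were called higher in old cells as well. The peak 650 bases after it was at 15.4% in old and 0.65% in young cells over 8 CpGs. The peak 967 bases after it was at 41.4% in old and 27.1% in young cells over 5 CpGs. Psmb8 had called peaks in both lists, all lower in old cells, with 3.70% in old and 19.3% in young cells at a peak 745 bases before the start. That peak lies inside the promoter window, so its CpGs are counted in both measures. A Psmb8 peak of the young list 149 bases before the start went the other way, at 10.7% in old and 7.92% in young cells over 4 CpGs, and was not called. It overlaps a called peak of the old list 109 bases before the start, at 4.79% in old and 22.6% in young cells over 5 CpGs. Bst2 had 3 measured peaks. The peak of the old list at its start (chr8:74061183-74061303) was at 2.74% in old and 15.9% in young cells over 5 CpGs and was called. The overlapping peak of the young list (chr8:74061140-74061266) was at 3.18% in old and 7.42% in young cells over 9 CpGs, and a peak 452 bases before the start at 21.8% in old and 23.4% in young cells, neither called. The Bst2 peaks were chosen for mention after their values were seen.

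At the gene starts, H3K4me1 was called at 21 of the 43 genes in old cells (39.8% of all genes) and at 33 in young cells (55.4% of all genes), within 2500 bases. It was present at both ages at 19, in old cells alone at Rsad2 and Tapbp, in young cells alone at 14 and at neither age at 8. The old list holds 36207 peaks and the young list 77291, so a gene is more easily called in young cells, and peak lists of unequal length show no gain or loss. Among the Gbp genes, Gbp3, Gbp6, Gbp7 and Gbp11 had a peak in the young list, and none of the 6 had one in the old list.

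H3K27me3, the mark of Polycomb repression, was called within 1000 bases at 11 members in old cells (41.5% of all genes) and at 6 in young cells (27.9% of all genes). Irf7, Isg15, Nlrc5 and Oasl1 had it at both ages. Bst2, Gbp3, H2-D1, Ifi44, Psmb9, Tap1 and Tap2 had it in the old list alone, and Cxcl10 and Gbp2 in the young list alone. The old list holds 38007 regions and the young list 31187, so a region in the old list alone shows no gain. The region at Bst2 (chr8:74026001-74064000, mm9) covers the gene, whose RNA fell. Of the 11 members with the mark in old cells, among which Gbp3 and Isg15 were not tested for RNA, 1 fell and 0 rose. Over all genes tested, 7.93% fell and 3.17% rose. Among the 11, H2-D1, Oasl1 and Tap2 were higher in all old libraries and Irf7 was lower, without passing the threshold. A link between this mark and RNA was not tested. Psmb9 and Tap1 start 226 bases apart on opposite strands, so a peak there counts for both.

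H3K27ac, a mark of active elements, was called in young cells at 22 members (35.7% of all genes), with Gbp7 as the member of the Gbp family that carried it. The 22 genes with the mark had a median level of 15.1 CPM in old and 14.8 CPM in young cells, and a median promoter methylation of 12.6% in old and 13.7% in young cells. The 21 genes without it had 1.69 CPM in old and 4.29 CPM in young cells, and 49.2% in old and 50.9% in young cells. The genes with the mark also had more CpGs in the window, 39.5 against 14 in the median. Of the genes that changed, Ifih1 carried the mark, and Gbp11, Bst2 and Oasl2 did not.

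**Figure D5:**
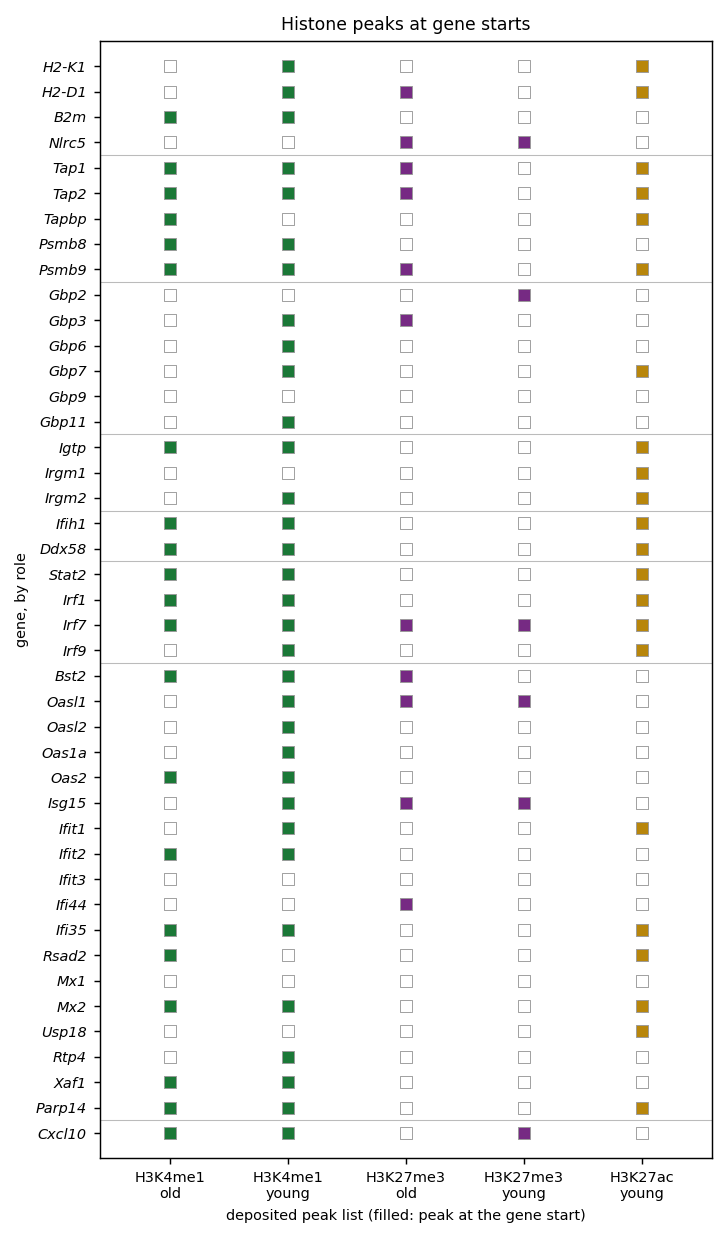
Peaks at the starts of the 43 genes in the 5 deposited lists, old left of young within a mark, with filled squares for a peak. H3K4me1 is filled at 21 starts in old and 33 in young cells, H3K27me3 at 11 in old and 6 in young cells and H3K27ac at 22 in young cells.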

How the data were processed

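RNA, histone and bisulfite libraries of sorted β cells were compared by age. The deposited RNA table holds whole-number counts per transcript, and each gene was represented by its transcript with the most counts in all. Counts were compared with edgeR 4.0.16 (R 4.3.3; TMM factors, filterByExpr), 3 old against 2 young libraries. The young libraries are named by depth because their columns carry no replicate number. The names of the young columns end in different suffixes, which the old column names lack and which were not interpreted here. The young libraries may therefore differ in more than depth. The part of what the suffixes stand for in the differences between the young libraries was not tested. The authors' other RNA table, which is described as FPKM, was read as a per-length signal. Its 17-month and shallower young columns were 100% identical and its values are not scaled to depth. It therefore served for positions and for ranks within a library, with those columns left out. The shared values followed the counts of the shallower young library. The ratio of counts to signal, relative to the 15-month library, had an interquartile range of 0.0015 for the shallower young and 0.197 for the 17-month column. STAR, HOMER, edgeR, Bowtie 0.12.7 and CASAVA 1.8.2 appear, without roles, in the submitters' processing notes, with build mm9. HOMER made the H3K4me1 and H3K27ac peaks, per the file headers, and each peak has a deposited score. The sources used here do not name the caller of the H3K27me3 lists. The deposited CpG tables hold a methylated fraction and the coverage, from which calls were recovered; a promoter or peak needed 3 CpGs of 5 reads and was tested with Fisher's exact test, adjusted over all promoters or over each peak list. Intervals cover counting error only and, like the Fisher tests, treat each call as independent, though neighbouring CpGs can share reads. Promoter sequences are RefSeq's (GRCm38.p6), and no coordinates were converted between builds.

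The 43 genes and the lists were chosen with earlier results of these data known. Values are given per library for the Gbp genes, genes past the threshold and the most abundant gene of each role. The design text names 3 young RNA replicates and 2 old H3K27me3 replicates, and the others were not analysed here. It also gives the old bisulfite pool an age of 18 to 22 months, other than its label. The sources used here do not state whether counting used strand. Scripts were tested on simulated data.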

Additional observations from a re-analysis of the deposited data

How the results depend on the processing

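Over the 41 tested members and the 14 pathway genes past the threshold, 410 of the alternative log2 fold changes kept their direction and side of the threshold, 50 lost the call, 13 gained one and 22 changed sign, the last all in members that were not called. Members that rose numbered 1 in the main comparison, 2 with DESeq2 (Gbp11 and Gbp6, with 7.2% of all genes) and 1 to 7 when single libraries were left out (7 without the deeper young library). Members that fell numbered 3, against 5 with DESeq2 (Ifit2 and Xaf1 added, with 18.0% of all genes) and 0 to 5 without single libraries: 0 without the old library of 15 or of 16 months, 1 without that of 17 months and 5 without the deeper young one. Xaf1 was added with no filter. Without the shallower young library Bst2, Ifih1 and Irf7 fell. Leaving out a young library leaves 1, assumed to vary like the old ones. Without the deeper young library Gbp6 (2.43, adjusted p = 0.0331) and Gbp9 (5.17, adjusted p = 0.000201) passed, as did Gbp6 with DESeq2 (1.93, adjusted p = 0.0223). Pathway genes that rose numbered 5, against 3 with RLE factors, 8 with DESeq2 and 0 to 17 without single libraries (0 without any 1 old library, 10 without the shallower and 17 without the deeper young one). Pathway genes that fell numbered 9, against 19 with DESeq2 and 2 to 20 without single libraries (2, 3 and 2 without the old library of 15, 16 or 17 months, 20 without the deeper young one). Markers of other cell types that fell numbered 44, against 25 to 48 without single libraries (25 without the old library of 17 months). The median log2 fold change over all genes was -0.17 with RLE factors and -0.52 with DESeq2, against -0.05 in the main comparison. Promoters higher in old cells numbered 5, against 3 with 500 bases before the start and 3 with the mean over CpGs, both with Oasl1 added. Peaks of the old list higher in old cells numbered 1, against 0 at a coverage of 10, and peaks of the young list lower in old cells 5, against 3 within 10 kb. The H3K4me1 peaks at members are 121 bases long in the old list and 127 in the young list. A single peak therefore cannot supply 500 bases of overlap. With 500 bases required, 0 members had H3K4me1 in old and 0 in young cells, against 3 and 483 of 22534 genes. Because of the peak length, this setting cannot show how firm the H3K4me1 counts of members are. Log2 fold changes that changed sign ranged, without single libraries, over -0.39 to 0.0026 in B2m, -0.37 to 1.20 in Ddx58, -0.79 to 0.080 in Ifi35, -0.84 to 1.37 in Igtp, -0.083 to 0.80 in Irgm1, -1.52 to 0.020 in Irgm2, -3.06 to 0.64 in Nlrc5, -2.32 to 2.46 in Oas1a, -1.02 to 1.31 in Oas2, -0.30 to 1.38 in Parp14, -0.60 to 4.13 in Psmb9, -0.27 to 1.67 in Rsad2, -0.68 to 1.18 in Stat2 and -0.56 to 0.19 in Tap1. Oas2 was at -0.071 with RLE factors and -0.067 with DESeq2, against 0.03, and Stat2 at 0.0043 with no filter, against -0.05. The cause was not tested. No paired analysis was possible because the young columns carry no replicate number. With 2 young libraries of lower depth, genes near 1 CPM rest on few young counts.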
